A study of Homo sapiens with 31 samples.

Results

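The 10 genes described here are TXN, TXNRD1, PRDX1, PRDX2, PRDX3, SOD1, SOD2, GPX1, GPX4 and GSR, the core of the thioredoxin and glutathione antioxidant systems together with the superoxide dismutases. They were chosen by name, as the rows of a table of 30667 Ensembl gene identifiers that carry those symbols, and all 10 had at least 1 count. The cells were NALM-6, an established line of acute lymphoblastic leukemia of early B cells, transduced with 1 of 4 lentiviral constructs. EF1a/sh-CTRL and SFFV/sh-CTRL expressed a control short hairpin RNA, and EF1a/sh-XIAP and SFFV/sh-XIAP expressed a hairpin against XIAP, an inhibitor of caspases, so every sample carried a vector and no untransduced cells were analysed here. The study calls the knockdown (KD) under the EF1a promoter moderate and that under the SFFV promoter strong. RNA was taken 4, 10 and 13 days after transduction and sequenced with prime-seq, which reads the 3′ end of transcripts and counts each molecule once by its unique molecular identifier (UMI). The sample labels have the cells followed in vitro, the series description has them taken from mouse bone marrow, and the study's methods describe sorting at days 10 and 13.

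There were 31 samples: 9 of EF1a/sh-CTRL, 7 of EF1a/sh-XIAP, 8 of SFFV/sh-XIAP and 7 of SFFV/sh-CTRL. Of these, 10 were from day 4, 10 from day 10 and 11 from day 13. Nothing in the labels says whether replicates of a group were separate cultures, so p-values measure only the spread between these samples. A sample held 312852 to 1153668 UMIs (median 603822). All 12 markers of B-cell precursors had UMIs and summed to 5000 to 5770 counts per 1000000 UMIs (CPM), whereas the markers of myeloid cells summed to at most 25.6 CPM and those of T cells, erythroid cells and stroma to at most 6.91 CPM. At days 10 and 13 the targeted XIAP had a mean of 8.86 ± 3.06 CPM (± SD throughout) in 6 SFFV/sh-XIAP samples, against 10.2 ± 4.72 CPM in 4 SFFV/sh-CTRL samples. In 5 EF1a/sh-XIAP samples it had 9.62 ± 1.45 CPM, against 10.8 ± 4.67 CPM in 6 EF1a/sh-CTRL samples. A sample held 2 to 14 XIAP UMIs at those days, and the groups overlapped, so no clear knockdown was seen in XIAP RNA. Why was not tested. The study measured its knockdown on XIAP protein, by Western blot.

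Cells make superoxide and hydrogen peroxide as by-products of respiration and of other oxidases. Superoxide dismutases convert superoxide to hydrogen peroxide, which peroxiredoxins and glutathione peroxidases then reduce to water. Peroxiredoxins are recycled by thioredoxin, thioredoxin by thioredoxin reductase, and oxidised glutathione by glutathione reductase, with NADPH as the source of electrons. Many of these genes can be switched on through antioxidant response elements, DNA sites bound by the transcription factor NRF2.

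Of the 9 members whose annotation was searched (all but GSR), 3 are selenoproteins, in which a TGA codon that would otherwise end translation is read as selenocysteine. This codon was annotated in TXNRD1, GPX1 and GPX4 and in no other member searched. It is shown in capitals with 12 bases on each side, 5′ to 3′ on the coding strand (GENCODE 29, GRCh38). In TXNRD1 it was codon 550 of 551, in the last of 15 exons at chr12:104348413-104348415 on the plus strand. In GPX1 it was codon 49 of 203, in exon 1 of 2 at chr3:49358132-49358134 on the minus strand. In GPX4 it was codon 73 of 197, in exon 3 of 7 at chr19:1105403-1105405 on the plus strand.
TXNRD1: caggctggctgcTGAggttaagcccca
GPX1: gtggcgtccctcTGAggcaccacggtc
GPX4: gtggcctcccagTGAggcaagaccgaa

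To look at the antioxidant response element, the core letters TGACNNNGC were searched on both strands of RefSeq promoters (250 bases before to 50 after a start site, GRCh38.p14). Of the members, 7 were searched, with 13 RefSeq promoters (GPX1, SOD2, TXN, PRDX3, TXNRD1, GPX4 and PRDX2). GSR was left out of this search. The letters were found in 2 of the 13 (15.4%), both of TXNRD1, against 4687 of 35116 promoters of all genes (13.3%). The 3 matches are shown in capitals on the plus strand, the last 2 as the reverse complement of the core, at chr12:104215672-104215696, chr12:104215763-104215787 and chr12:104286922-104286946.
TXNRD1, first start site, 99 bases before it: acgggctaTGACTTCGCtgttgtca
TXNRD1, first start site, 8 bases before it: gtccttcgGCTCCGTCAgttcccac
TXNRD1, another start site, 102 bases before it: ggatttctGCTTTGTCAttctgact
A match describes these letters only, and TXNRD1 passed the test in no comparison below.

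Levels are given per gene in CPM. Levels of different genes are not compared, because some counts may be shared with near-identical copies or overlapping genes. TXN, the small disulfide-reducing protein of the system (chromosome 9, 110243811-110256640), was at 196.6 ± 18.8 CPM over the 31 samples (range 160.9 to 238.8). TXNRD1, the cytosolic reductase that recycles it (chromosome 12, 104215779-104350305), was at 86.6 ± 12.2 CPM (range 63.0 to 105.4). Both were measured in every sample, with at least 60 UMIs of TXN and 21 of TXNRD1. The mean levels of the 12 groups of construct and day spanned 1.28-fold for TXN and 1.23-fold for TXNRD1.

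PRDX1, the cytosolic peroxiredoxin (chromosome 1, 45511036-45523047), was at 1556 ± 108 CPM (range 1378 to 1766), with 439 to 2021 UMIs in a sample. PRDX3, the mitochondrial one (chromosome 10, 119167703-119178833), was at 151.4 ± 21.8 CPM (range 101.9 to 195.0). PRDX2, also cytosolic and known for its abundance in red cells (chromosome 19, 12796820-12801859), had 1 UMI in all 31 samples together, in replicate 3 of SFFV/sh-XIAP at day 4, and 0 in the other 30. PRDX2 lies with its whole length inside the annotated span of HOOK2 on the same strand, and HOOK2 had 509 UMIs. Whether reads of PRDX2 were left uncounted for that overlap was not tested, so its level stays unknown, and it did not pass the filter on low values that the other 9 passed.

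GPX1 (chromosome 3, 49357171-49358600), a cytosolic and mitochondrial glutathione peroxidase, was at 155.9 ± 24.5 CPM (range 95.2 to 198.4). GPX4 (chromosome 19, 1103926-1106791), which reduces lipid hydroperoxides in membranes and guards against ferroptosis, was at 209.6 ± 20.5 CPM (range 166.3 to 258.9). GSR (chromosome 8, 30678061-30727999), the glutathione reductase, had the fewest UMIs of the 9, between 12 and 67 in a sample, and was at 43.6 ± 6.89 CPM (range 32.4 to 61.2). SOD1 (chromosome 21, 31659622-31668931), the copper and zinc enzyme of the cytosol, was at 241.4 ± 22.1 CPM (range 179.2 to 280.7). SOD2 (chromosome 6, 159669057-159745186), the manganese enzyme of mitochondria, was at 121.1 ± 16.0 CPM (range 79.4 to 151.3). The highest of the 12 group means was 1.20 times the lowest for PRDX1 and 1.23 to 1.497 times for the other 8. With groups put in the order of their means, neighbouring groups overlapped throughout for 8 genes, and TXNRD1 had 1 pair of neighbours that did not. How often this happens over all genes was not counted, so nothing is read from that pair.

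**Figure D1:**
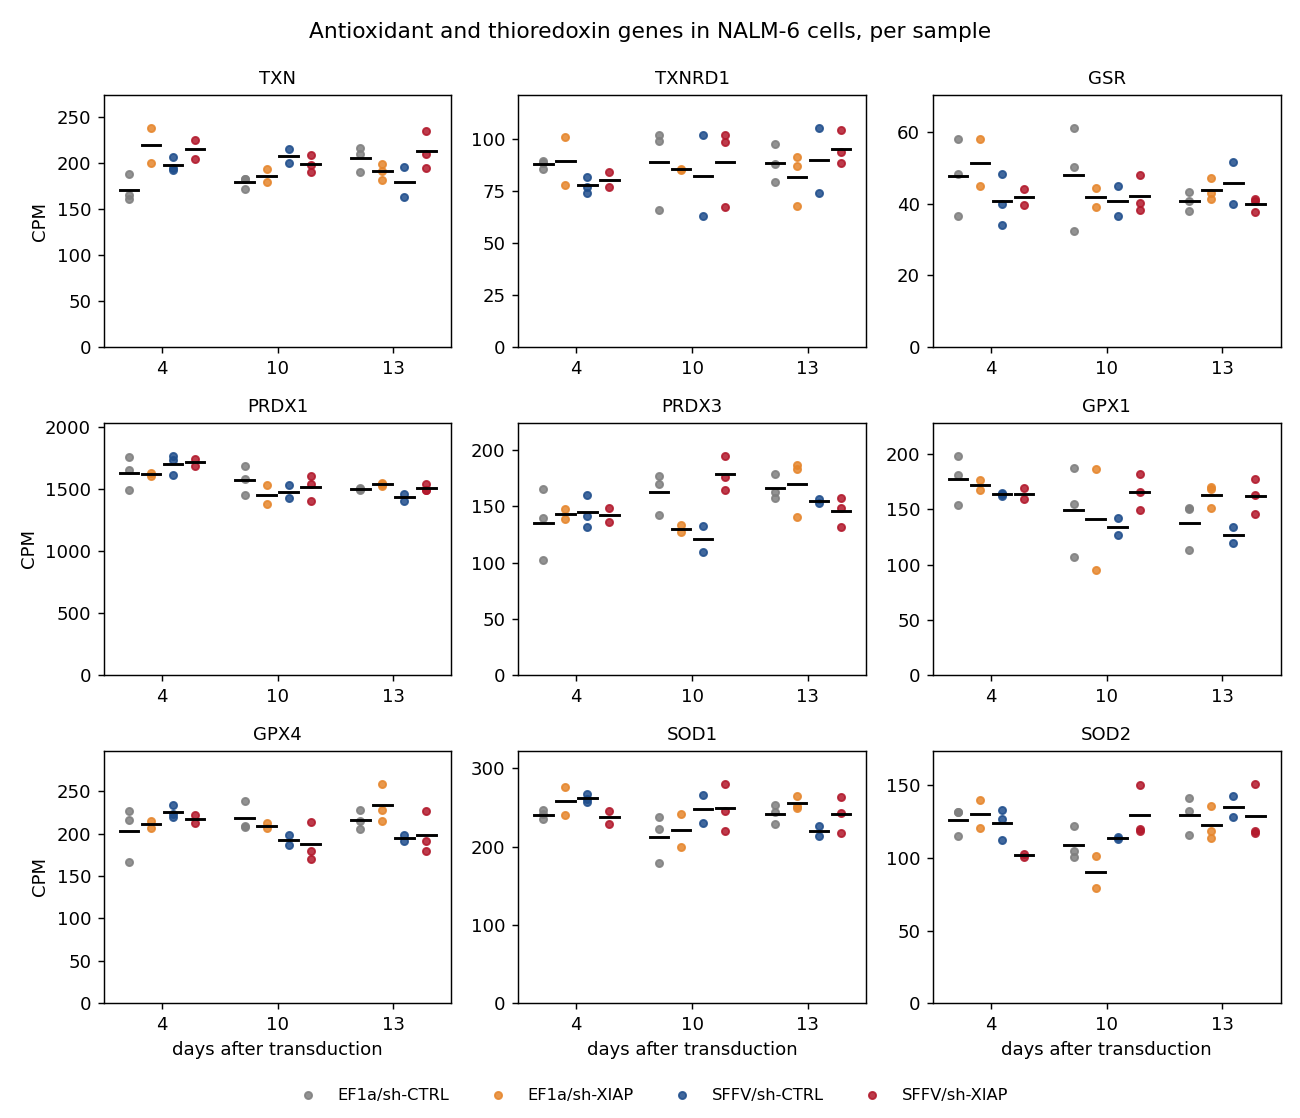
CPM of the 9 members tested (vertical axes, from 0) by day after transduction (horizontal axes), 1 point per sample, coloured by construct, with a black bar at each group mean. PRDX1 is higher on average at day 4 (1488 to 1766 CPM) than later (1378 to 1686 CPM). For all 9 members, PRDX1 included, the range at day 4 overlaps that of the later days.

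Some counts may be shared with near-identical copies or overlapping genes. Processed pseudogenes took 18.4% of the UMIs of the GPX1 family, 12.1% of the TXN family and 3.77% of the PRDX1 family, and at most 0.259% for PRDX3 and SOD1. GPX1 itself is classed as a polymorphic pseudogene in GENCODE 29 and is counted here as the gene. MMACHC, a cobalamin-processing gene with 13477 UMIs, overlaps PRDX1 by 2347 bases on the opposite strand, WTAP overlaps SOD2 by 19602 bases on the opposite strand, and the pseudogene RPL18AP3, with 7243 UMIs, lies inside TXNRD1. The sources used here do not give whether counting used strand.

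The only call among the members was with time. PRDX1 fell from day 4 to days 10 and 13, by 0.18 on the log2 scale averaged over the 4 constructs (SE 0.0175, 95% interval −0.21 to −0.14, adjusted p = 1.35e-09 in limma-voom), which is 11.7% less. It was the only one of the 9 members tested that passed the threshold of an adjusted p of 0.25 in this comparison, 0 higher and 1 lower, where 0.696% of all 17676 genes tested were called (0.305% higher and 0.39% lower). Over all samples the mean was 1665 ± 87.2 CPM at day 4 (n = 10) and 1504 ± 72.0 CPM at days 10 and 13 (n = 21).

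With EF1a/sh-CTRL, PRDX1 was at 1650, 1488 and 1752 CPM at day 4, at 1450, 1575 and 1686 CPM at day 10 and at 1494, 1490 and 1506 CPM at day 13. With EF1a/sh-XIAP it was at 1603 and 1627 CPM at day 4, at 1378 and 1527 CPM at day 10 and at 1546, 1519 and 1542 CPM at day 13. Day 4 and the later days overlapped with EF1a/sh-CTRL (means 5.93% lower later, exact permutation p = 0.0714), and with EF1a/sh-XIAP both day 4 samples were above all 5 later ones (6.97% lower later, exact permutation p = 0.0476). With SFFV/sh-CTRL the values were 1766, 1733 and 1607 CPM at day 4, 1423 and 1530 CPM at day 10 and 1401 and 1461 CPM at day 13. With SFFV/sh-XIAP they were 1740 and 1683 CPM at day 4, 1604, 1403 and 1539 CPM at day 10 and 1536, 1490 and 1487 CPM at day 13. In both SFFV constructs all day 4 samples were above all later ones, with means 14.6% lower later for SFFV/sh-CTRL (exact permutation p = 0.0286) and 11.8% lower for SFFV/sh-XIAP (exact permutation p = 0.0357). Samples that did not overlap in this direction were found for 4.75% of all genes with EF1a/sh-XIAP, for 3.15% in SFFV/sh-CTRL cells and for 3.79% in SFFV/sh-XIAP cells.

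With labels exchanged within constructs, the exact permutation test over all 31 samples gave a two-sided p of 1.74e-06, where the smallest possible was 5.79e-07. The change of the strong KD effect on PRDX1 from day 4 to the later days was 0.06 (95% interval −0.04 to 0.16, adjusted p = 0.958 in limma-voom). Between days 10 and 13 PRDX1 differed by 0.01 (95% interval −0.03 to 0.05). The lower level was present at day 10, and any difference in handling between the sampling days cannot be told apart from time.

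Depth moved with PRDX1: day 4 samples had a median of 751952.5 UMIs against 548598 later, and the log2 CPM of PRDX1 correlated with log2 total UMIs (r = 0.47, 31 samples, which share the day). With log2 total UMIs as a covariate the change was −0.17 (adjusted p = 1.38e-07 in limma-voom), and with all samples thinned to 312852 UMIs it was −0.14 (adjusted p = 0.00274). MMACHC, the overlapping gene on the other strand, was at 647.8 ± 30.2 CPM at day 4 (n = 10) and 652.0 ± 33.8 CPM later (n = 21), a difference of −0.01 on the log2 scale (95% interval −0.06 to 0.04, adjusted p = 0.967 in limma-voom). For every 100 PRDX1 UMIs a sample held 39.0 ± 1.66 MMACHC UMIs at day 4 and 43.4 ± 2.87 later. The pseudogene PRDX1P1, named after its values were seen, fell by 0.55 (SE 0.0926, adjusted p = 0.000922 in limma-voom), from 74.4 ± 8.80 CPM at day 4 to 51.7 ± 10.8 CPM later. With its counts added to PRDX1 the change was −0.19 (adjusted p = 5.77e-11).

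**Figure D2:**
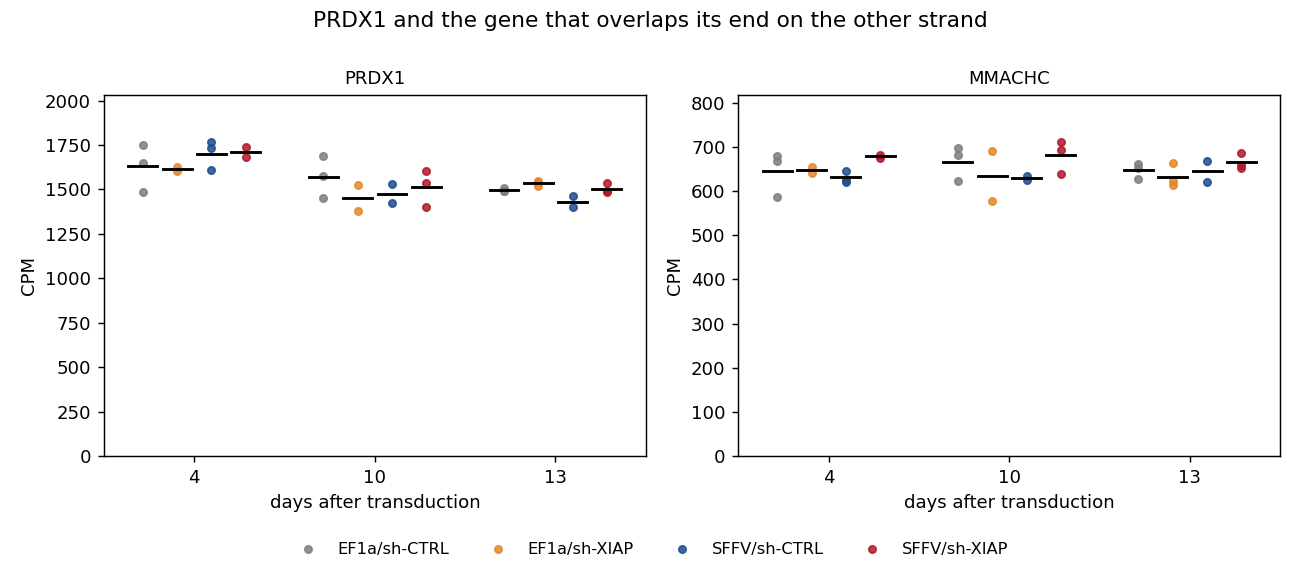
CPM of PRDX1 (left) and of MMACHC, which overlaps it on the opposite strand (right), by day after transduction, 1 point per sample coloured by construct, with bars at group means and vertical axes from 0. The PRDX1 means fall from 1665 CPM at day 4 to 1511 at day 10 and 1497 at day 13, while those of MMACHC are 647.8, 657.0 and 647.5 CPM.

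GPX1 was also lower on average at the later days but did not pass the threshold. Its fitted change was no smaller than that of PRDX1 (−0.18), but its SE was larger (0.0702 against 0.0175). It was at 169.6 ± 13.0 CPM at day 4 (lowest 153.4, median 166.0, highest 198.4, n = 10) and at 149.4 ± 26.2 CPM later (lowest 95.2, median 150.7, highest 187.2, n = 21). The difference was −0.20 (SE 0.0702, 95% interval −0.34 to −0.06, p = 0.00612, adjusted p = 0.438 in limma-voom), and the exact permutation p was 0.0195. By construct the later mean was 19.1% lower with EF1a/sh-CTRL and 10.4% lower with EF1a/sh-XIAP, while in the SFFV/sh-CTRL samples it was 20.1% lower and in the SFFV/sh-XIAP samples 0.235% lower. The edgeR quasi-likelihood test put GPX1 past the threshold (−0.19, adjusted p = 0.240), as did adding the counts of its pseudogenes (−0.25, adjusted p = 0.140). Leaving out replicate 1 of EF1a/sh-CTRL at day 10 (−0.23, adjusted p = 0.240) or replicate 1 of EF1a/sh-XIAP at day 10 (−0.27, adjusted p = 0.156) did so too. In all, 3 of 10 alternatives and 2 of 31 fits with a sample left out put GPX1 past the threshold, and in the others the adjusted p was as high as 0.793 and 0.704.

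The other 7 members had differences between −0.09 (SOD1, adjusted p = 0.703 in limma-voom) and 0.07 (PRDX3, adjusted p = 0.859), and their 95% intervals held 0. Of the 9 members, 3 were higher and 6 lower later, with a median of −0.06, against a median of −0.0030 over all genes tested. GPX4 was below day 4 without overlap in SFFV/sh-CTRL, at 220.0 to 233.9 CPM at day 4 and 186.9 to 198.1 CPM later (14.3% lower, exact permutation p = 0.0286, the smallest possible). GPX1 was so too, at 161.9 to 164.6 CPM at day 4 and 119.6 to 141.8 CPM later (20.1% lower, exact permutation p = 0.0286), so that with PRDX1 3 of 9 members were lower without overlap in that construct, as were 3.15% of all genes. In EF1a/sh-XIAP, TXN was lower without overlap, at 200.9 and 238.8 CPM at day 4 and 179.7 to 199.4 CPM later (13.9% lower, exact permutation p = 0.0476, the smallest possible), which with PRDX1 made 2 of 9 members against 4.75% of all genes. SOD2 was above day 4 without overlap in SFFV/sh-XIAP, at 100.6 and 102.9 CPM at day 4 and 116.9 to 151.3 CPM later (27.2% higher, exact permutation p = 0.0714), as for 3.09% of all genes. None of these was tested as a difference between constructs beyond SFFV/sh-XIAP against SFFV/sh-CTRL, where the change of the effect was 0.34 for SOD2 (95% interval −0.04 to 0.73, adjusted p = 0.951 in limma-voom), the value for GPX1 is given with strong KD, and that for GPX4 was 0.09 (−0.20 to 0.38).

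Between days 10 and 13 none of the 9 members passed the threshold in limma-voom, edgeR or DESeq2, where 0.0452% of 17683 genes did in limma-voom, and 1 member had an unadjusted p under 0.05, as did 4.96% of all genes. This was SOD2, at 112.6 ± 18.5 CPM at day 10 (lowest 79.4, median 114.1, highest 150.6, n = 10) and 128.6 ± 12.8 CPM at day 13 (lowest 114.0, median 128.2, highest 151.3, n = 11). The difference was 0.18 (95% interval 0.02 to 0.35, p = 0.0324, adjusted p = 0.983 in limma-voom), and the exact permutation p was 0.00496. The days overlapped, and the group means at day 10 and day 13 were 109.3 and 129.8 CPM with EF1a/sh-CTRL, 90.4 and 122.7 CPM with EF1a/sh-XIAP, 114.1 and 135.3 CPM in the SFFV/sh-CTRL samples, and 129.7 and 129.0 CPM in the SFFV/sh-XIAP samples. Of the constructs, 3 of 4 had the higher mean at day 13.

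Strong and moderate XIAP KD were each compared with the control hairpin under the same promoter. With strong KD at days 10 and 13, none of the 9 members passed the threshold in limma-voom, edgeR or DESeq2, where limma-voom called 0.0792% of 17683 genes. None had an unadjusted p under 0.05 in limma-voom, as 5.59% of all genes did. Means were higher with SFFV/sh-XIAP than with SFFV/sh-CTRL for 8 of 9 members in the fit, with a median of 0.06 against −0.02 over all genes tested. The 95% intervals of all 9 held 0 and lay between −0.44 and 0.56, the widest being that of GSR. For PRDX1 the interval was −0.03 to 0.11, so that a change of the size seen with time was outside it.

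GPX1 did not overlap between these constructs. With SFFV/sh-CTRL it was at 141.8 and 126.8 CPM at day 10 and at 119.6 and 134.1 CPM at day 13. With SFFV/sh-XIAP it was at 149.5, 182.2 and 165.4 CPM at day 10 and at 145.7, 162.6 and 177.6 CPM at day 13. All 6 SFFV/sh-XIAP samples were above all 4 SFFV/sh-CTRL samples, as was the case for 0.718% of all genes, and the means were 163.8 ± 14.6 and 130.6 ± 9.54 CPM (25.4% higher). The fitted difference was 0.28 (SE 0.139, 95% interval −0.01 to 0.56, p = 0.0541, adjusted p = 0.895 in limma-voom), and the exact permutation p within days was 0.02, where 0.01 was the smallest possible. At day 4 the same constructs did not differ in this way (159.0 and 169.4 CPM against 163.8, 161.9 and 164.6 CPM), but the change of the strong KD effect between day 4 and the later days was itself within error (0.28, 95% interval −0.13 to 0.70, adjusted p = 0.955 in limma-voom). For that change 0 of 9 members passed the threshold, against 0.0226% of all genes.

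PRDX3 had the next largest difference with strong KD, 0.23 (95% interval −0.03 to 0.49, adjusted p = 0.917 in limma-voom). With SFFV/sh-CTRL it was at 132.8 and 109.5 CPM at day 10 and at 156.7 and 152.7 CPM at day 13. With SFFV/sh-XIAP it was at 164.1, 175.8 and 195.0 CPM at day 10 and at 148.5, 157.6 and 131.6 CPM at day 13. The groups were apart at day 10 and overlapped at day 13. At day 10 PRDX3, GPX1 and SOD2 were higher without overlap, 3 of 9 members against 8.82% of all genes, and the exact permutation test of 3 against 2 samples cannot go below 0.1. At day 13 GPX1 (145.7 to 177.6 against 119.6 to 134.1 CPM) and PRDX1 (1487 to 1536 against 1401 to 1461 CPM) were higher without overlap. The share of all genes at day 13 is not given here, so nothing is read from this. For PRDX3 the difference was 0.61 at day 10 alone (adjusted p = 0.397) and −0.08 at day 13 alone (adjusted p = 0.963).

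**Figure D3:**
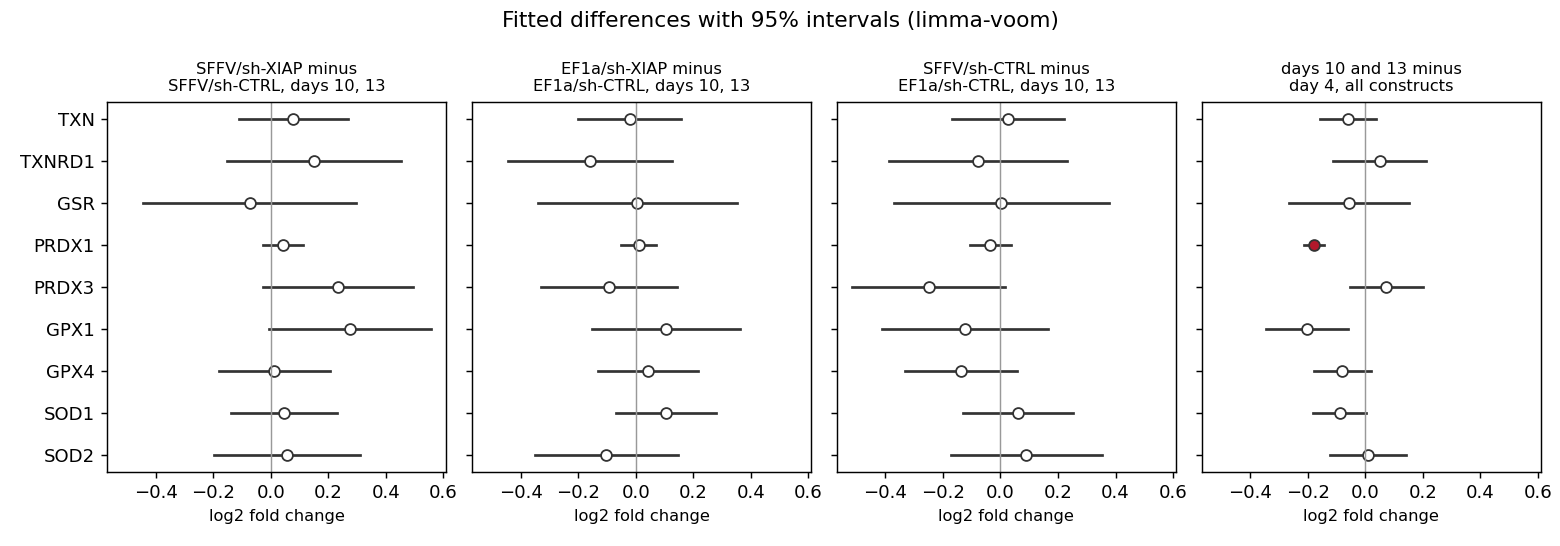
Fitted log2 fold changes (points) with 95% intervals (lines) of the 9 members tested, from left to right for strong KD, moderate KD, the promoter in control cells (each at days 10 and 13), and days 10 and 13 against day 4. PRDX1 against day 4 (filled point, −0.18) is the only difference past the threshold, and the intervals of all 9 members hold 0 in the first 3 panels.

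With moderate KD at days 10 and 13 there were again no calls among the 9 members in limma-voom, edgeR or DESeq2 where limma-voom called 0.017% of all genes, and no unadjusted p under 0.05, against 4.63% of all genes. Of the members, 5 were higher and 4 lower, with a median of 0.01, equal after rounding to that of all genes. The intervals lay between −0.44 and 0.36, and the largest differences were −0.16 for TXNRD1 (83.4 CPM with EF1a/sh-XIAP and 88.7 CPM with EF1a/sh-CTRL) and 0.11 for GPX1 (154.2 ± 35.3 and 143.6 ± 29.8 CPM). Set against each other, the strong and the moderate KD effect did not differ past the threshold for any member (0 of 9 in the 3 tools, background 0.00566%), and none had an unadjusted p under 0.05 in limma-voom (background 5.06%). For GPX1 the difference between the effects was 0.17 (95% interval −0.21 to 0.55), for PRDX3 0.33 (−0.03 to 0.68) and for TXNRD1 0.31 (−0.11 to 0.73).

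The promoter in control cells, SFFV/sh-CTRL against EF1a/sh-CTRL at days 10 and 13, gave no call among the members in any of the 3 tools (background 0.00566%) and no unadjusted p under 0.05 in limma-voom (background 5.15%). GPX4 did not overlap between these groups: it was at 186.9, 197.9, 190.8 and 198.1 CPM in the 4 SFFV/sh-CTRL samples and at 205.4 (lowest), 212.2 (median) and 237.9 CPM (highest) in the 6 EF1a/sh-CTRL samples. All SFFV/sh-CTRL samples were thus lower, by 10.96% in the mean, as was so for 0.56% of all genes. The fitted difference was −0.14 (95% interval −0.33 to 0.06, adjusted p = 0.949 in limma-voom), and the exact permutation p was 0.02. PRDX3 was at 137.9 CPM on average with SFFV/sh-CTRL and 164.5 CPM with EF1a/sh-CTRL, a difference of −0.25 (95% interval −0.51 to 0.02). The SFFV/sh-CTRL samples are also the controls of the strong KD comparison, so the GPX1 and PRDX3 values of both comparisons share them.

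At day 4 none of the 9 members passed the threshold in limma-voom, edgeR or DESeq2 for strong KD (background 0.0109%), moderate KD (0.0491%) or the promoter (0.0164%), with 2 or 3 samples in each group. TXN with moderate KD had the smallest unadjusted p of these (0.00143, adjusted p = 0.931 in limma-voom). It was at 200.9 and 238.8 CPM with EF1a/sh-XIAP and at 188.2, 160.9 and 165.6 CPM with EF1a/sh-CTRL, a difference of 0.38 (95% interval 0.15 to 0.60). Both EF1a/sh-XIAP samples were above all EF1a/sh-CTRL samples, as for 10.6% of all genes, and the exact permutation test of such groups cannot go below 0.1. With SFFV/sh-CTRL at day 4 TXN was at 207.1, 194.6 and 193.3 CPM, also above EF1a/sh-CTRL. At the later days TXN with EF1a/sh-XIAP and EF1a/sh-CTRL overlapped (189.4 and 192.5 CPM, −0.02, 95% interval −0.20 to 0.16). For the promoter at day 4, SOD1 was higher without overlap as well (257.5 to 267.3 CPM with SFFV/sh-CTRL against 234.9 to 247.2 CPM with EF1a/sh-CTRL), which made 2 of 9 members against 5.01% of all genes. TXNRD1 was lower without overlap (74.2 to 81.8 against 85.8 to 89.3 CPM), 1 of 9 members against 4.2% of all genes. With strong KD at day 4, SOD1 (228.5 and 246.2 CPM against 257.5 to 267.3 CPM) and SOD2 (100.6 and 102.9 CPM against 112.3 to 132.8 CPM) were lower without overlap, 2 of 9 members against 9.68% of all genes. None of these groups of 2 or 3 samples can give an exact permutation p below 0.1.

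Around the members, 113 other genes of these pathways were listed in 6 groups, and 97 of them could be tested. In days 10 and 13 against day 4, 1 of the 97 rose and 1 fell past the threshold, against 0.305% and 0.39% of all genes tested. In direction, 40 were higher and 57 lower with a median of −0.02. Over all genes tested, 8692 were higher and 8984 lower with a median of −0.0030. FTH1, the heavy chain of the iron store ferritin and an NRF2 target, fell by 0.25 (adjusted p = 0.143 in limma-voom), from 142.2 ± 11.2 CPM (n = 10) to 122.4 ± 20.7 CPM (n = 21). TKT, the transketolase of the pentose phosphate pathway, rose by 0.11 (adjusted p = 0.174 in limma-voom), from 441.4 ± 18.2 CPM to 474.1 ± 26.2 CPM. Both calls were lost with DESeq2 (adjusted p = 0.375 for FTH1 and 0.406 for TKT) and with thinned counts (0.844 and 0.337), and that of TKT with edgeR (0.470). The call was also lost when 1 of 6 single samples was left out for FTH1 and 1 of 8 for TKT, with adjusted p up to 0.550 and 0.390.

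By group, the test passed 0 of 19 other thioredoxin and peroxiredoxin genes, 0 of 21 genes of glutathione synthesis and use, 0 of 16 other selenoproteins and genes of their synthesis, 0 of 8 genes of superoxide, hydrogen peroxide and methionine repair, 1 of 19 genes of the NRF2 axis (FTH1) and 1 of 14 genes of NADPH supply (TKT). Over all genes tested, 0.696% passed in this comparison. At an unadjusted p under 0.05, 2 of the 97 were higher and 9 lower, against 3.3% and 3.86% of all genes, and 0 and 2 of the 9 members. In the other 9 comparisons no listed gene passed the threshold in limma-voom, where 0.00566% to 0.0792% of all genes did. PRDX4, PRDX5 and PRDX6, the remaining peroxiredoxins, differed from day 4 by 0.05, 0.05 and 0.03 on the log2 scale, each within error.

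**Figure D4:**
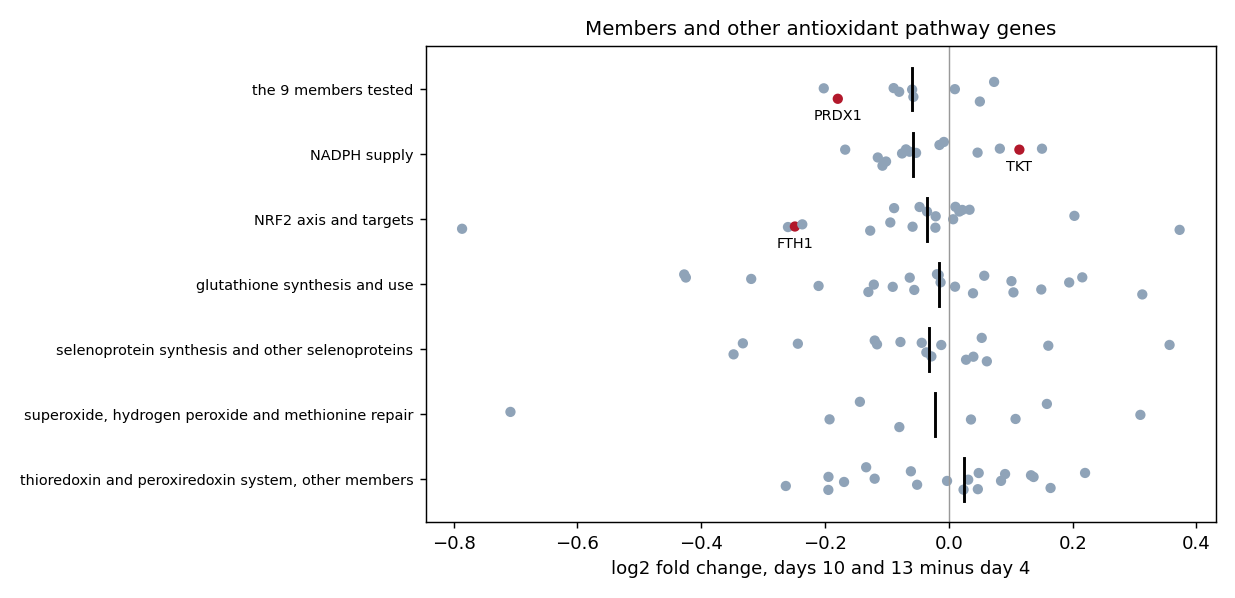
Fitted log2 fold changes of days 10 and 13 against day 4 (horizontal axis) for the 9 members tested and the 97 other pathway genes tested, 1 point per gene in its group (vertical axis, scattered for display), with a black line at each group's median. Red points passed the threshold: PRDX1 (−0.18) and FTH1 (−0.25) fell and TKT (0.11) rose, and group medians lie within 0.06 of 0.

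NFE2L2, which encodes NRF2, was at 37.8 CPM on average over the 31 samples (range 24.4 to 49.1), and KEAP1, its cytosolic inhibitor, at 102 CPM (76.7 to 132). TXNIP, which binds and inhibits thioredoxin, was at 35.4 CPM (21.1 to 60.3). CAT, the catalase, was at 111 CPM (80.6 to 153), and GCLM, a subunit of the enzyme that starts glutathione synthesis, at 25.2 CPM (8.25 to 40.7). Of the strongly inducible NRF2 targets, NQO1 was at 2.89 CPM (0 to 7.63) and HMOX1 had 1 UMI in all samples together.

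Across the 31 samples the 9 members did not move as 1 block. The Pearson correlations of the 36 pairs, taken on log2 CPM after the mean of each of the 12 groups was removed, had a median of 0.03 and ran from −0.74 (PRDX1 and GPX1) to 0.58 (PRDX3 and GPX4). The genes most like the mean of the members' standardized log2 CPM, of 17667 genes searched over 31 samples, were APOBEC3G (r = 0.68), GPANK1 (r = 0.67) and B4GALT6 (r = 0.66). These values describe samples that share depth and day, and deviations within a group are not independent of each other.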

How the data were processed

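RNA of NALM-6 cells was sequenced by prime-seq. The authors deposited 1 table of UMI counts per gene and sample, whole numbers without normalization. The submitters' processing notes name STAR 2.6.0a and the builds hg38, mm10, GRCh38 and GRCm38 without their roles. The annotation for counting is not given in the sources used here, nor is its strand setting. Samples were grouped by labelled construct and day, and none was left out. The study's methods exclude 5 outlier samples without naming them. Here EF1a/sh-XIAP at days 4 and 10, SFFV/sh-CTRL at days 10 and 13, and SFFV/sh-XIAP at day 4 have 2 samples each. The other groups have 3. Whether the samples missing from these groups are the excluded ones is not stated.

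Symbols came from GENCODE 29 (29928 of 30667 identifiers) and then a name table (731); 8 identifiers were unmatched. Genes that exceeded 1 CPM in 33.3% or more of a fit's samples entered the test on the deposited counts, by limma-voom after TMM normalization (R 4.3.3, edgeR 4.0.16, limma 3.58.1, DESeq2 1.42.0), with Benjamini-Hochberg adjustment over all genes and a threshold of 0.25, two-sided. Samples of days 10 and 13 (21) were fitted with construct and day, those of day 4 (10) with construct, and all 31 with 12 group means. Single genes were compared by exact permutation tests on log2 CPM (prior count 2), two-sided, within days or constructs. Other constructs share 1 estimate of the spread. The procedure was tested on simulated counts.

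Depth was 312852 to 1153668 UMIs per sample, and no 2 replicates agreed within sampling noise (chi-square per gene 1.07 to 2.42 over 26 pairs). Between samples of different groups, residuals correlated no more for the same replicate number (mean −0.00055 over 149 pairs) than for different numbers (0.00030 over 290 pairs). These pairs pooled days and constructs, so a culture shared across days was not tested apart.

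The members, the lists of pathway genes and markers, and the tests were chosen with earlier results of these data known. Named genes were the members, XIAP, up to 5 called pathway genes per comparison by smallest p, TXNIP, NFE2L2, KEAP1, NQO1, HMOX1, GCLM and CAT by level, and the 3 genes most like the members; MMACHC, HOOK2, PRDX1P1, RPL18AP3, WTAP and PRDX4 to PRDX6 were named after values or positions were seen.

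Alternatives were edgeR's quasi-likelihood test, DESeq2, no TMM, DESeq2 size factors, no filter, a replicate block, a threshold of 0.05, thinned counts, log2 total UMIs as a covariate, pseudogene counts added, each day alone and each sample left out.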

Additional observations from a re-analysis of the deposited data

Results flagged for a closer look

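In 36 sets of samples of 1 member and 1 construct at days 10 and 13, 5 had a sample far from the others, by the gap to its nearest neighbour as a share of the range; chance alone gives about 1 in 20.

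TXN in replicate 1 of SFFV/sh-XIAP at day 13 was at 235.0 CPM, above 190.7 to 209.7 CPM in the other 5 samples (gap 0.629 of the range). TXNRD1 in replicate 3 of EF1a/sh-XIAP at day 13 was at 67.7 CPM, below 85.3 to 91.2 CPM in the other 4 (gap 0.758). TXNRD1 in replicate 2 of SFFV/sh-XIAP at day 10 was at 67.1 CPM, below 88.4 to 104.2 CPM in the other 5 (gap 0.644), and that sample was the shallowest, with 312852 UMIs and 21 of TXNRD1.

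PRDX1 in replicate 1 of EF1a/sh-XIAP at day 10 was at 1378 CPM, below 1519 to 1546 CPM in the other 4 (gap 0.721); without that sample PRDX1 still passed the threshold against day 4. SOD1 in replicate 2 of EF1a/sh-XIAP at day 10 was at 200 CPM, below 241.9 to 265.3 CPM in the other 4 (gap 0.737), on 63 UMIs of 315055.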

How the results depend on the processing

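The fall of PRDX1 from day 4 to the later days passed the threshold in all 10 alternatives (−0.19 to −0.14 on the log2 scale, adjusted p 5.77e-11 to 0.0133, the highest with DESeq2) and with each of the 31 samples left out (−0.19 to −0.17). The number of members called in that comparison was 1, and it became 2 with edgeR (PRDX1 and GPX1), 3 without a filter beyond 1 UMI (SOD1 as well) and 2 with pseudogene counts added (PRDX1 and GPX1); with single samples left out it was 1 to 2. Without the filter 6575 of 29756 genes tested were called, rather than 123 of 17676, and the median of all genes tested moved to 0.14. FTH1 (−0.249) and TKT (0.117) changed about as much as with the filter (−0.249 and 0.114). Why more genes were called was not tested. In the other 9 comparisons 0 members were called under every alternative run. With the replicate block PRDX1 changed by −0.18 (adjusted p = 1.17e-08) and the number of members called was 1 against day 4 and 0 in the other comparisons, as without the block. Deviations of same-numbered samples from their group means had an r of −0.026 to 0.026 (149 pairs). These pairs pooled days and constructs. Whether a number marks 1 culture sampled on several days was not tested, and without the block the day comparisons treat samples as independent. The block moved the genes called against day 4 from 54 higher and 69 lower to 44 higher and 47 lower.

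Counts over all genes depended more on the setting: 14 genes with strong KD became 0 to 49, 3 with moderate KD 0 to 23, 8 between days 10 and 13 0 to 68, and 123 against day 4 became 30 to 125 in the other alternatives that kept the filter and 59 to 143 with single samples left out. The count of 30 came from DESeq2, and the cause was not tested. Depth limits GSR most: with 12 to 67 UMIs a sample, its interval was the widest in all 10 comparisons.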

Other observations

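Within the 12 groups of construct and day, samples with more PRDX1 had less GPX1: the deviations of log2 CPM from the group means had a Pearson r of −0.74 and a Spearman rho of −0.67 over 31 samples, and r was −0.62 without the 2 samples farthest from the PRDX1 median. This was the lowest of the 36 pairs of members. The same deviations of PRDX1 and GPX1 had an r of 0.21 and −0.10 with log2 total UMIs. The pair was picked after all 36 had been seen, so no test is given. In groups of 2 samples the deviations mirror each other, so the 31 values are not independent.

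In EF1a/sh-XIAP at day 10, GPX1 was at 186.6 CPM in replicate 1 and 95.2 CPM in replicate 2, the lowest of the 31 samples, while PRDX1 was at 1378 and 1527 CPM. With EF1a/sh-CTRL at day 10 GPX1 was at 187.2, 154.4 and 106.5 CPM and PRDX1 at 1450, 1575 and 1686 CPM.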
